A study of Oryza sativa with 46 samples.

Results

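The stress NAC genes of rice studied here are 7 loci named in the array design: SNAC1 (Os03g0815100, chromosome 3), NAC6, also called SNAC2 (Os01g0884300, chromosome 1), NAC5 (Os11g0184900, chromosome 11), NAC10 (Os11g0126900, chromosome 11), NAC3 (Os07g0225300, chromosome 7), SNAC3 (Os01g0191300, chromosome 1) and NAC4 (Os01g0816100, chromosome 1). They were chosen by locus name, with earlier results of these data known. Among the 29923 loci on the array all 7 had a probe, 20 of the 42477 probes in all. SNAC1 had 5 probes, NAC5 and SNAC3 had 4 each, NAC6, NAC3 and NAC4 had 2 each, and NAC10 had 1. NAC proteins are plant transcription factors that share a DNA-binding domain at the N-terminal end and carry a variable activation region at the other end. Several of them are switched on in rice by drought, salt and abscisic acid, the hormone of water deficit, and then act on genes for protective proteins, stomatal closure and metal transport. SNAC1, NAC6, NAC5 and NAC10 are best known as factors whose overexpression makes rice plants more tolerant of drought or salt.

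The study hybridised total RNA of whole seedlings, root and shoot together, to one-color Agilent rice oligo arrays, 1 seedling on each of 46 arrays. Seedlings of 8 genotypes were grown in Yoshida nutrient solution and sampled at 16 days after emergence, either at 0 mM NaCl or after 48 h at 120 mM NaCl (with half-strength salt first and extra CaCl2), which gave 16 groups of 3 arrays, except that the IR 58 controls and the salted BRRI dhan 29 seedlings had 2. Pokkali is a salt-tolerant indica landrace, PSBRc50 and IR 58 are moderately tolerant indica varieties, BRRI dhan 29 is a susceptible high-yielding indica variety, Banikat is a moderately tolerant japonica cultivar, Nipponbare is a susceptible japonica cultivar, and Oryza latifolia and Oryza rufipogon are susceptible wild species. Each genotype was 1 germplasm accession, so that it stands for that accession only, and fewer cells of a type and less RNA per cell cannot be told apart in such whole-seedling RNA.

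The scanner software called 20914 to 36693 probes of an array brighter than their local background, which is termed well above background here. The lowest numbers, 20914 to 23526, were those of the O. latifolia arrays other than the salted replicate 2 (35094). Arrays of the other genotypes had 26898 or more. Values are log2 of the spot signal after quantile normalization between arrays, so that 1 unit is a doubling, and levels are compared only within a probe. Of 32 probes for 5 shoot genes (Rubisco and light-harvesting proteins) 31 were well above background on every array, as were 4 of 10 probes for 5 root genes (silicon, manganese and sodium transporters and RCc3). The summed log2 signal of the shoot list ran from 21.4 to 22.6 at 0 mM and from 21.5 to 22.5 at 120 mM, that of the root list from 14.02 to 17.2 and from 13.8 to 17.3. The median salt effect was −0.02 for the shoot list and −0.45 for the root list, with 0 probes of either called. Over the 6 genotypes without Banikat and Nipponbare, where 11 NAC probes rose, 1 of 10 root probes (Lsi1, −0.66, adjusted p = 0.0405) and 1 of 32 shoot probes fell, and without the 8 arrays described next as well, 3 of 10 root probes (median −0.60) and 2 of 32 shoot probes fell. The part of tissue shares in the NAC results was not tested. Over all probes, 8 arrays resembled another genotype more than their own: the salted replicate 3 of PSBRc50, the control replicate 2 of IR 58 and that of BRRI dhan 29, all replicate 3 arrays of the japonica cultivars Banikat and Nipponbare, and the salted replicate 2 of O. latifolia. Their correlation with their own genotype was −0.09 to 0.10 and with the best-matching genotype 0.42 to 0.84, where the other arrays reached 0.23 to 0.93 with their own. The IR 58 control among them was closest to BRRI dhan 29 (0.69), and the BRRI dhan 29 control to IR 58 (0.42). The PSBRc50 array was closest to Banikat (0.80) and the O. latifolia array to PSBRc50 (0.47). Both Banikat arrays were closest to Nipponbare (0.42 and 0.48), the Nipponbare control to IR 58 (0.42) and the salted Nipponbare array to Banikat (0.84).

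A second departure concerns the treatment labels. LEA3, a late embryogenesis abundant protein that is among the best-known salt-induced transcripts of rice, read 14.89 and 17.01 on the arrays labelled Banikat at 0 mM, replicates 1 and 2, against 4.72 and 6.88 on those labelled 120 mM. In Nipponbare the same replicates read 16.43 and 15.95 at 0 mM and 11.44 and 4.78 at 120 mM. In replicate 3 the order was the other way, with 7.46 and 15.23 in Banikat and 6.26 and 13.96 in Nipponbare. RAB16A, a dehydrin induced by abscisic acid, ran the same way, from 16.21 and 17.71 to 6.27 and 7.58 in Banikat replicates 1 and 2. Outside these 2 cultivars, PSBRc50 at 120 mM replicate 3 was the only salted array with LEA3 (3.46) below all controls of its genotype. Why these arrays run against their labels was not tested, and no array was relabelled. Mean salt effects and tests between genotypes are given below with all arrays, without both cultivars, and without the 8 arrays that resemble another genotype. No fit left out only the arrays that run against their labels. Without the 8 arrays, Banikat and Nipponbare keep only replicates 1 and 2.

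NAC6, a factor induced by cold, drought, salt and wounding, had the lowest adjusted p of the 7 genes for a salt effect over the 8 genotypes. Its probe AB028185 was well above background on all 46 arrays. In Pokkali, NAC6 read 13.21, 13.30 and 13.11 at 0 mM (replicates 1 to 3) and 15.84, 14.77 and 13.67 at 120 mM. PSBRc50 read 13.08, 13.63 and 13.28 without salt and 16.36, 15.94 and 13.47 with it. Both genotypes had 2 clearly brighter salted arrays and 1 close to its controls, which in PSBRc50 was the array that resembles another genotype. IR 58 read 13.47 and 14.11 for NAC6 at 0 mM and 16.13, 15.74 and 15.40 at 120 mM. BRRI dhan 29 read 13.40, 13.57 and 14.40, then 16.87 and 14.81. The treatments did not overlap in either variety, though the replicate 2 control of each (14.11 and 13.57) resembles the other variety. O. latifolia read 15.29, 14.89 and 14.98 for NAC6 at 0 mM and 16.79, 15.93 and 16.72 at 120 mM, and O. rufipogon read 13.77, 13.46 and 13.87 at 0 mM and 14.21, 15.89 and 16.02 at 120 mM. Both wild species had all 3 salted arrays above all 3 controls. The arrays labelled Banikat read 15.58, 16.30 and 13.94 at 0 mM and 13.72, 13.24 and 15.47 at 120 mM, and those labelled Nipponbare read 15.89, 15.91 and 13.18 at 0 mM and 13.74, 14.17 and 14.71 at 120 mM. Here NAC6 followed LEA3, bright at 0 mM in replicates 1 and 2 and at 120 mM in replicate 3.

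**Figure D1:**
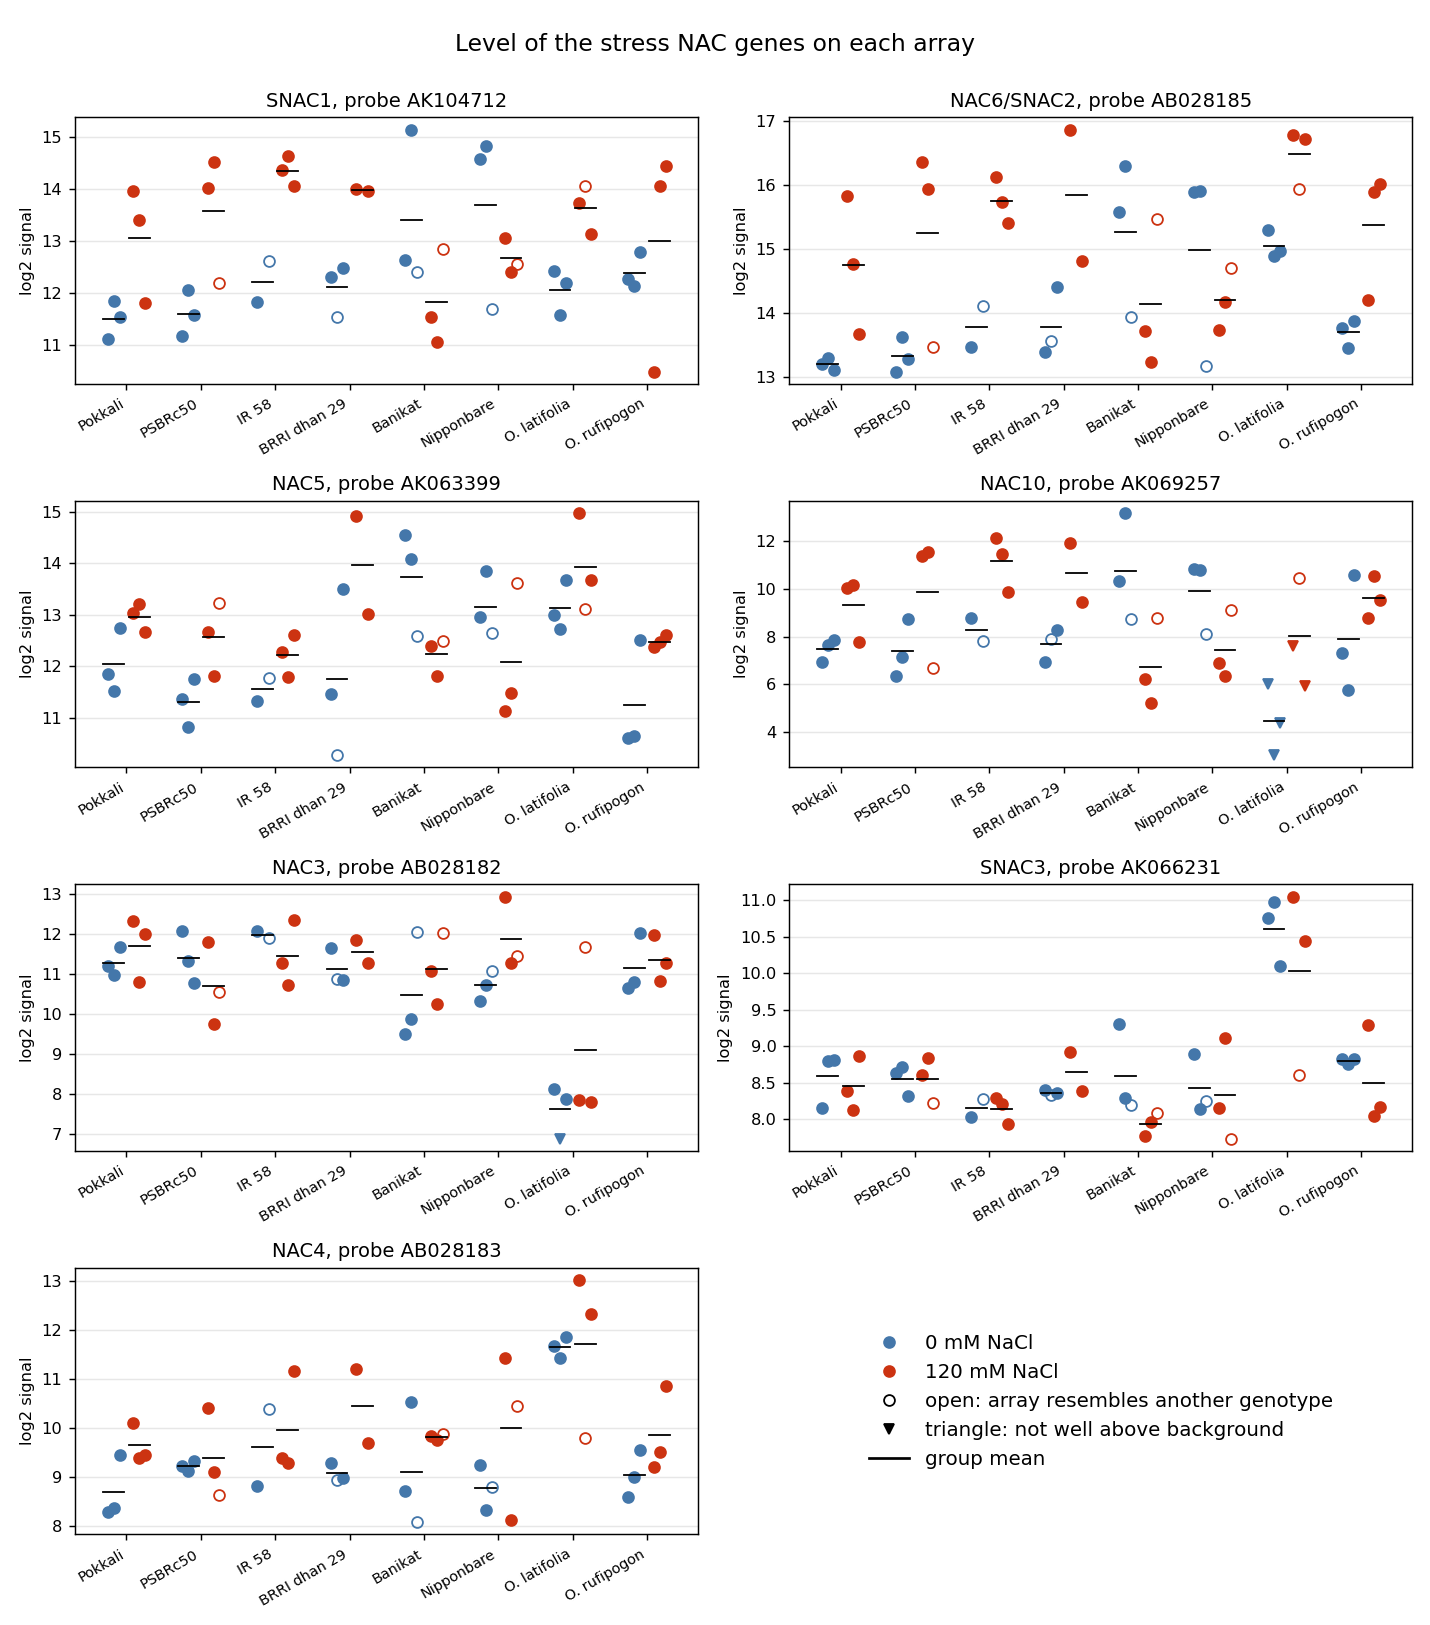
Level of the brightest probe of each stress NAC gene on the 46 arrays, as log2 signal (y axis), by genotype (x axis); blue is 0 mM and red 120 mM NaCl, bars are group means, open symbols are arrays that resemble another genotype, and triangles are values not well above background. NAC6 is higher on the salted arrays of 6 genotypes and on the control arrays of Banikat and Nipponbare replicates 1 and 2, while SNAC3 and NAC4 are highest in O. latifolia.

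Averaged over the 8 genotypes, NAC6 AB028185 stood at 14.14 ± 0.83 (SD over 8 genotype means) at 0 mM and 15.23 ± 0.82 at 120 mM, and rose by 1.08 on the log2 scale (SE 0.26, 2.12-fold, limma with Benjamini-Hochberg adjustment over all probes, adjusted p = 0.0256). The other NAC6 probe, AK068392, rose by 1.53 (SE 0.42, adjusted p = 0.0492). Of all probes on the array, 1.94% passed this test, 1.23% as higher and 0.713% as lower with salt, and of the 20 NAC probes 4 passed, all higher, from 2 of the 7 genes. At an unadjusted p under 0.05, 11 of the 20 were past the threshold, against 18.1% of all probes. Without Banikat and Nipponbare, a comparison chosen after their marker genes had been seen, 16.4% of all probes passed (7.25% as higher and 9.18% as lower) and 11 of the 20 NAC probes rose, from 4 genes. The median effect of the 20 probes was 0.64 over 8 genotypes and 1.15 over these 6, where the medians of all probes were −0.01 and −0.01. Without the 8 arrays that resemble another genotype, but with all genotypes kept, 1 NAC probe passed (NAC6 AB028185, 0.95, adjusted p = 0.0104, 2.39% of all probes, 1.54% as higher and 0.85% as lower), and without both the 2 cultivars and these arrays 13 passed (22.9% of all probes, 10.7% as higher and 12.3% as lower).

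**Figure D2:**
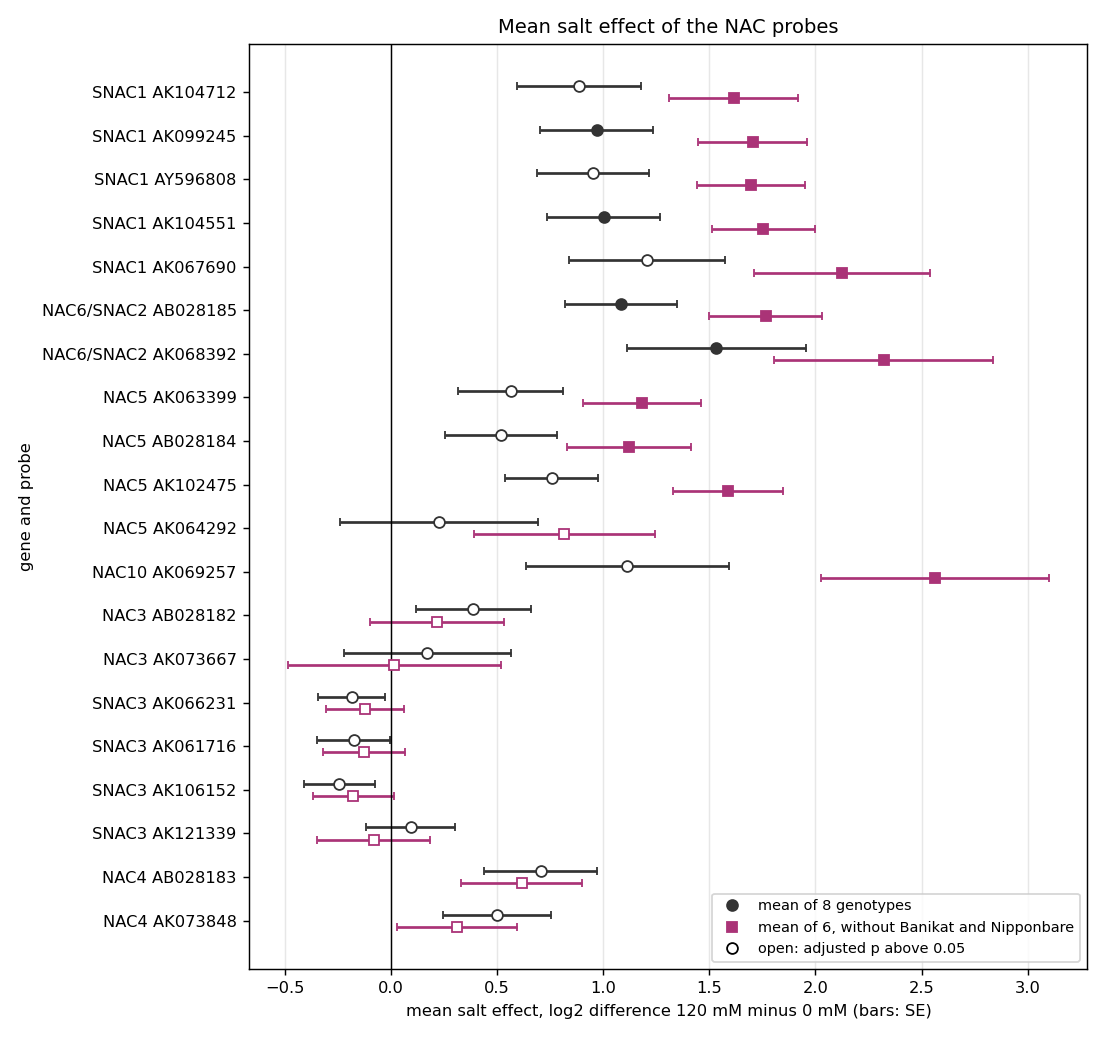
Mean salt effect of the 20 NAC probes, as the log2 difference 120 mM minus 0 mM (x axis, bars are SE), over 8 genotypes (grey circles) and over 6 without Banikat and Nipponbare (purple squares), with filled symbols for adjusted p at most 0.05. All 5 SNAC1 probes, both NAC6 probes, 3 NAC5 probes and the NAC10 probe are filled over 6 genotypes, and the NAC3, SNAC3 and NAC4 probes are open in both.

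SNAC1, a factor active in guard cells that favours stomatal closure under drought, came next. All its 5 probes name the same transcript and moved together over the arrays (r from 0.83 to 0.99 over 46 arrays, and at least 0.95 without O. latifolia). With the probe AK104551, Pokkali read 10.68, 11.58 and 11.60 at 0 mM and 13.67, 13.13 and 11.65 at 120 mM. PSBRc50 read 10.88, 11.78 and 11.44 for SNAC1 at 0 mM and 13.75, 14.36 and 12.02 at 120 mM. The third salted array was again the lowest in both, though above every control. With the other 4 SNAC1 probes the groups overlapped in Pokkali, and with AK067690 also in PSBRc50. IR 58 read 11.55 and 12.66 without salt and 14.09, 14.79 and 14.09 with it, and BRRI dhan 29 read 11.97, 11.49 and 12.29, then 13.89 and 13.98. Salted O. latifolia arrays (13.70, 14.12 and 13.02) lay above their controls (12.53, 11.62 and 12.25), whereas in O. rufipogon 12.44, 13.68 and 14.32 at 120 mM overlapped 11.78, 12.11 and 12.75 at 0 mM. Banikat read 12.33, 15.08 and 12.17 at 0 mM and 11.41, 10.96 and 12.69 at 120 mM, and Nipponbare read 14.40, 14.87 and 11.41, then 12.80, 12.35 and 12.51. As for NAC6, the brightest arrays of both japonica cultivars are labelled controls.

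Over the 8 genotypes AK104551 rose by 1.00 (SE 0.27, 2.00-fold, adjusted p = 0.0413) and AK099245 by 0.97 (SE 0.27, adjusted p = 0.0489). The other 3 SNAC1 probes had effects of 0.95 (AY596808, adjusted p = 0.0515), 0.89 (AK104712, adjusted p = 0.0954) and 1.21 (AK067690, adjusted p = 0.0746), so the 5 probes gave similar sizes on either side of the threshold. Without Banikat and Nipponbare all 5 rose, by 1.62 to 2.13 (3.07-fold to 4.37-fold, adjusted p from 2.81e-05 to 0.00091).

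NAC5, which is induced by abscisic acid and can bind the LEA3 promoter, has probes for 3 transcripts. AK063399 and AB028184 name the transcript -02, AK102475 the transcript -03 and the dim AK064292 the transcript -01. With AK102475, Pokkali read 10.48, 11.24 and 11.31 at 0 mM and 11.91, 12.11 and 11.94 at 120 mM, with no overlap. PSBRc50 read 9.88, 10.10 and 8.78 without salt and 11.59, 11.19 and 11.46 with it, IR 58 read 8.73 and 10.24, then 12.35, 11.62 and 11.97, and BRRI dhan 29 read 9.93, 9.45 and 8.78, then 11.41 and 10.83. In these 4 indica genotypes every salted array was above every control with this probe, whereas AK063399 and AB028184 overlapped in Pokkali and BRRI dhan 29, and AB028184 also in IR 58. The japonica arrays ran the other way, with 12.60, 11.68 and 11.60 at 0 mM and 9.31, 10.43 and 11.40 at 120 mM in Banikat. Nipponbare read 12.76, 13.08 and 11.69 at 0 mM and 10.22, 11.10 and 10.55 at 120 mM, so that every array labelled salted was below every array labelled control. O. latifolia (11.13, 12.43 and 10.84 at 0 mM, 13.98, 12.01 and 11.76 at 120 mM) and O. rufipogon (9.11, 10.88 and 11.63, then 12.71, 11.74 and 11.28) overlapped. Over 8 genotypes no NAC5 probe passed, with effects of 0.76 (SE 0.22, adjusted p = 0.0635) for AK102475, 0.56 for AK063399, 0.52 for AB028184 and 0.23 for AK064292. Without Banikat and Nipponbare the first 3 of these rose by 1.59 (adjusted p = 0.000173), 1.18 (0.00445) and 1.12 (0.00951), and AK064292 did not pass (0.82, adjusted p = 0.21).

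NAC10, whose overexpression in roots raises drought tolerance of rice, was low on most control arrays and spread widely over the salted ones. With its probe AK069257, Pokkali read 6.94, 7.64 and 7.86 at 0 mM and 10.03, 10.14 and 7.78 at 120 mM. PSBRc50 read 6.37, 7.15 and 8.73 for NAC10 without salt and 11.39, 11.54 and 6.68 with it. In both, the third salted array lay within the range of the controls. IR 58 read 8.76 and 7.81, then 12.13, 11.45 and 9.88, and BRRI dhan 29 read 6.95, 7.89 and 8.29, then 11.91 and 9.46, both without overlap. O. rufipogon read 7.32, 5.75 and 10.60 at 0 mM and 8.78, 10.54 and 9.53 at 120 mM, with overlap. Banikat read 10.32, 13.18 and 8.75 at 0 mM and 6.22, 5.24 and 8.77 at 120 mM, and Nipponbare read 10.84, 10.81 and 8.13, then 6.91, 6.36 and 9.10. In O. latifolia NAC10 was not well above background on any control array and on 1 of 3 salted arrays (10.45), the one that resembles PSBRc50, so its difference is only a bound, at least 7.78-fold higher, and without that array no bound could be given. Such a bound sets the mean of the bright group against the higher of the dim value and the array's lowest signal that was well above background. Over 8 genotypes the NAC10 effect was 1.11 (SE 0.48, adjusted p = 0.206). Without Banikat and Nipponbare it rose by 2.56 (SE 0.54, 5.92-fold, adjusted p = 0.00168).

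The other 3 genes did not pass over the 8 genotypes, nor over the 6 genotypes. NAC4, a factor known for plant immune cell death, was higher in all 8 genotypes with AB028183, by 0.07 in O. latifolia to 1.37 in BRRI dhan 29 (mean 0.71, SE 0.27, adjusted p = 0.145). The O. latifolia value was 1.03 without the array that resembles PSBRc50. NAC4 was higher with AK073848 in 5 genotypes (mean 0.50, adjusted p = 0.294). Both NAC4 probes were higher at 120 mM in Banikat (0.72 and 0.87) and Nipponbare (1.22 and 1.28), where the effects of SNAC1, NAC6 and NAC10 were negative. Without the replicate 3 arrays, which resemble another genotype, they stood at 0.17 and 0.57 in Banikat and 1.00 and 1.23 in Nipponbare. Between same-numbered arrays AB028183 differed by 1.12 and 2.19 in replicate 1, but by −0.77 and −0.19 in replicate 2. Only without the 2 cultivars and the 8 arrays did NAC4 rise, by 0.96 (AB028183, adjusted p = 0.00721) and 0.68 (AK073848, adjusted p = 0.0495). NAC3, one of the rice NAC cDNAs first described as a set with NAC4, NAC5 and NAC6, gave effects of 0.39 (SE 0.27, adjusted p = 0.486) for AB028182 and 0.17 for AK073667, and was likewise higher at 120 mM with both probes in Banikat and Nipponbare (0.59 to 1.17). SNAC3, whose overexpression protects rice from heat and oxidative damage, gave −0.18 (SE 0.16, adjusted p = 0.584) for AK066231, −0.17 for AK061716, −0.24 for AK106152 and 0.09 for the dim AK121339. With AK066231 the SNAC3 salt effect lay between −0.30 and 0.29 in 6 genotypes and at −0.66 in Banikat. In O. latifolia it was −0.57 with the array that resembles PSBRc50 and 0.14 without it.

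**Figure D3:**
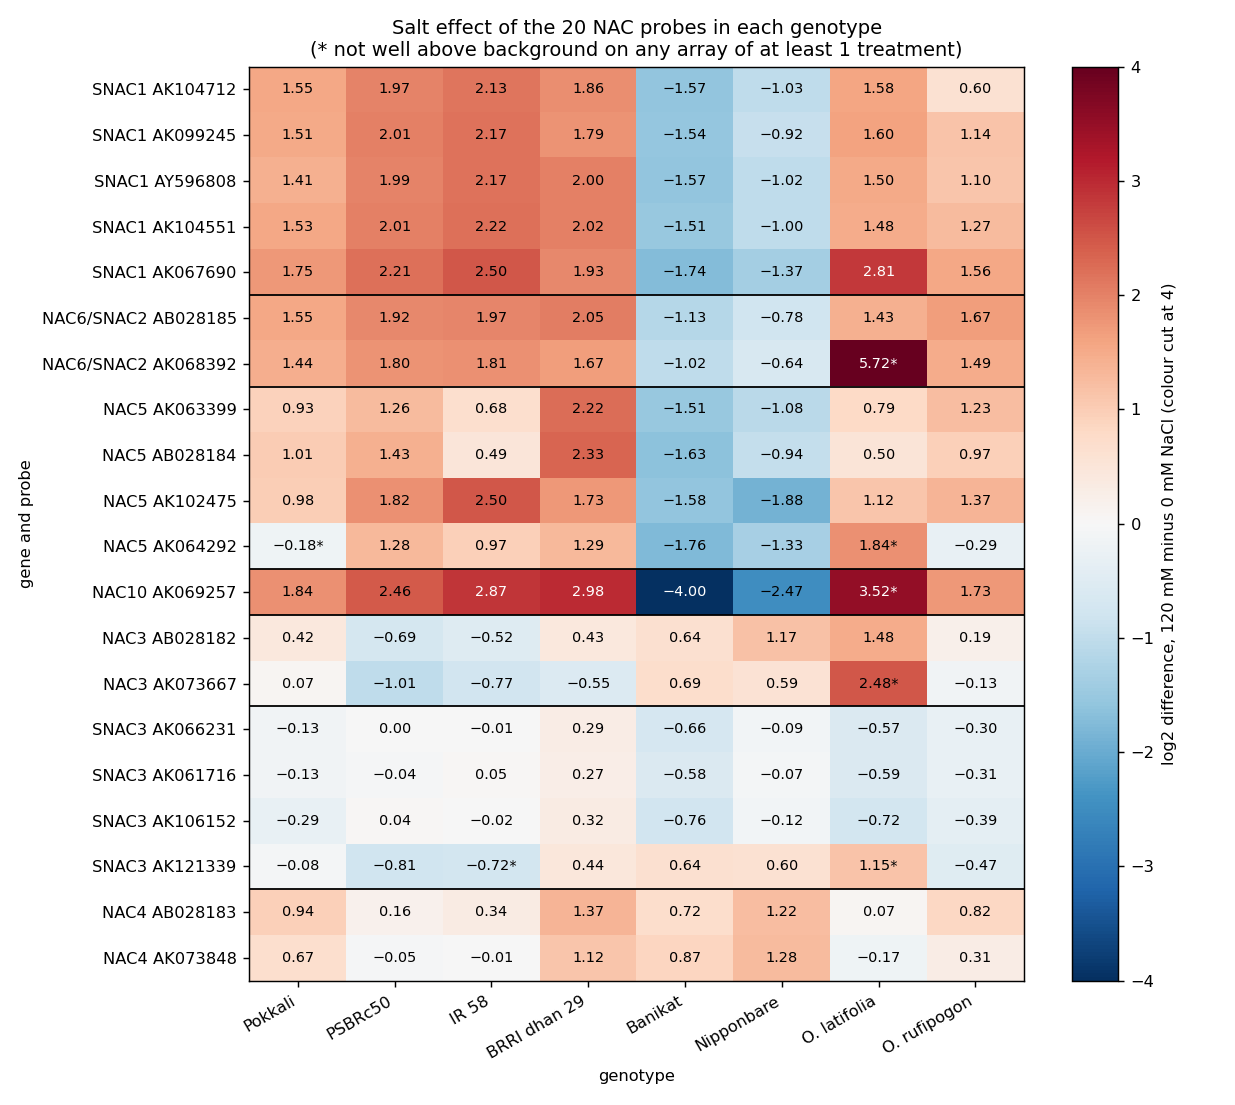
Salt effect of the 20 NAC probes in each genotype, as the log2 difference 120 mM minus 0 mM of the group means (number and colour, red higher and blue lower with salt); an asterisk marks a probe not well above background on any array of at least 1 treatment. SNAC1, NAC6 and NAC10 are red in 6 genotypes and blue in Banikat and Nipponbare, where NAC10 stands at −2.47 in Nipponbare.

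Within a single genotype, only 1 of the 160 tests passed. This was NAC6 AK068392 in O. latifolia (means of 4.48 at 0 mM and 10.20 at 120 mM, adjusted p = 0.00318), where 4% of all probes passed. On its control arrays this probe read 6.46, 1.40 and 5.58, none well above background, and on its salted arrays 7.82, 14.61 and 8.17, so that the difference is a bound of at least 25.3-fold, and the value of 14.61 comes from the array that resembles PSBRc50. Without that array the bound was at least 5.5-fold (adjusted p = 0.0174), and without replicate 2 of every group the probe was not called (adjusted p = 0.526). No other genotype had a called NAC probe, with 0.00235% of all probes called in Pokkali and IR 58, 0.00471% in BRRI dhan 29, 0.0118% in Nipponbare, 0.101% in O. rufipogon and 0% in PSBRc50 and Banikat. At an unadjusted p under 0.05, the NAC probes past the threshold numbered 3 in Pokkali (2.43% of all probes), 7 in PSBRc50 (5.29%), 7 in IR 58 (8.43%), 8 in BRRI dhan 29 (7.2%) and 7 in Banikat (7.46%). In Nipponbare 1 (4.33%), in O. latifolia 6 (22.4%) and in O. rufipogon 2 (7.7%) were past it, shares close to those of all probes. Without the 8 arrays 6 NAC probes rose in PSBRc50 (4.66% of all probes called), 4 of SNAC1, NAC6 AB028185 (2.82, adjusted p = 0.00389) and NAC10 (4.05, adjusted p = 0.0402). In the same fit 7 NAC probes were lower on the arrays labelled salted in Banikat (8.02% called), among them NAC10 (−6.02, adjusted p = 0.00379) and NAC6 AB028185 (−2.46, adjusted p = 0.0118). It called 1 NAC probe in O. latifolia (3.48%), and none at the adjusted threshold in Pokkali (0.254%), IR 58 (0.561%), BRRI dhan 29 (1.28%), Nipponbare (1.07%) and O. rufipogon (2.23%), where limma put 5 (6.54% of all probes), 9 (11.1%), 8 (12.8%), 12 (11.5%) and 4 (14.6%) NAC probes past an unadjusted p of 0.05.

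By overlap alone, 4 of the 20 NAC probes had every salted array above every control in Pokkali, against 5.77% of all probes. This number was 7 in PSBRc50 (4.97%), 11 in IR 58 (18.4%), 13 in BRRI dhan 29 (18.3%), 7 in O. latifolia (5.2%), 2 in O. rufipogon (9.76%), 3 in Nipponbare (5.91%) and 0 in Banikat (5.63%). Groups of 2 and 3 arrays separate more easily than groups of 3 and 3, as the percentages of IR 58 and BRRI dhan 29 show. Counting both directions, the groups did not overlap for 4 NAC probes in Pokkali (13.1% of all probes), 8 in PSBRc50 (15.6%), 11 in IR 58 (38.4%), 13 in BRRI dhan 29 (33.5%), 4 in Banikat (10.3%), 4 in Nipponbare (12%), 7 in O. latifolia (14.6%) and 2 in O. rufipogon (17%).

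Every genotype had control and salted arrays on the same slide, which gave 22 pairs of 1 genotype on 1 slide. The genotypes of the pairs are those of the labels, and pairs with an array that resembles another genotype were kept. Over the 16 pairs of the 6 genotypes other than the japonica cultivars, the salted array was brighter for NAC6 AB028185 in 16, for SNAC1 AK104712 in 15, for NAC5 AK063399 in 14, for NAC10 in 13, for NAC4 AB028183 in 12, for SNAC3 AK066231 in 9 and for NAC3 AB028182 in 7. The median difference was 1.69 for NAC6, 1.67 for SNAC1, 1.09 for NAC5 and 2.80 for NAC10, against 0.59 for NAC4, 0.03 for SNAC3 and −0.14 for NAC3. Among the 6 pairs of Banikat and Nipponbare, NAC6, SNAC1 and NAC10 were brighter on the salted array in 2 each. These were the replicate 3 pairs on slide 9, whose arrays all resemble another genotype. Over all 22 pairs the sign of the NAC6 difference was that of LEA3 in 21, the sign of SNAC1 and of NAC10 in 20 each, of NAC5 in 18, of NAC4 in 17, of SNAC3 in 13 and of NAC3 in 9. The exception for NAC6 was the pair labelled PSBRc50 on slide 3, with a NAC6 difference of 0.19 and a LEA3 difference of −5.11. Its salted array was closest to Banikat.

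**Figure D4:**
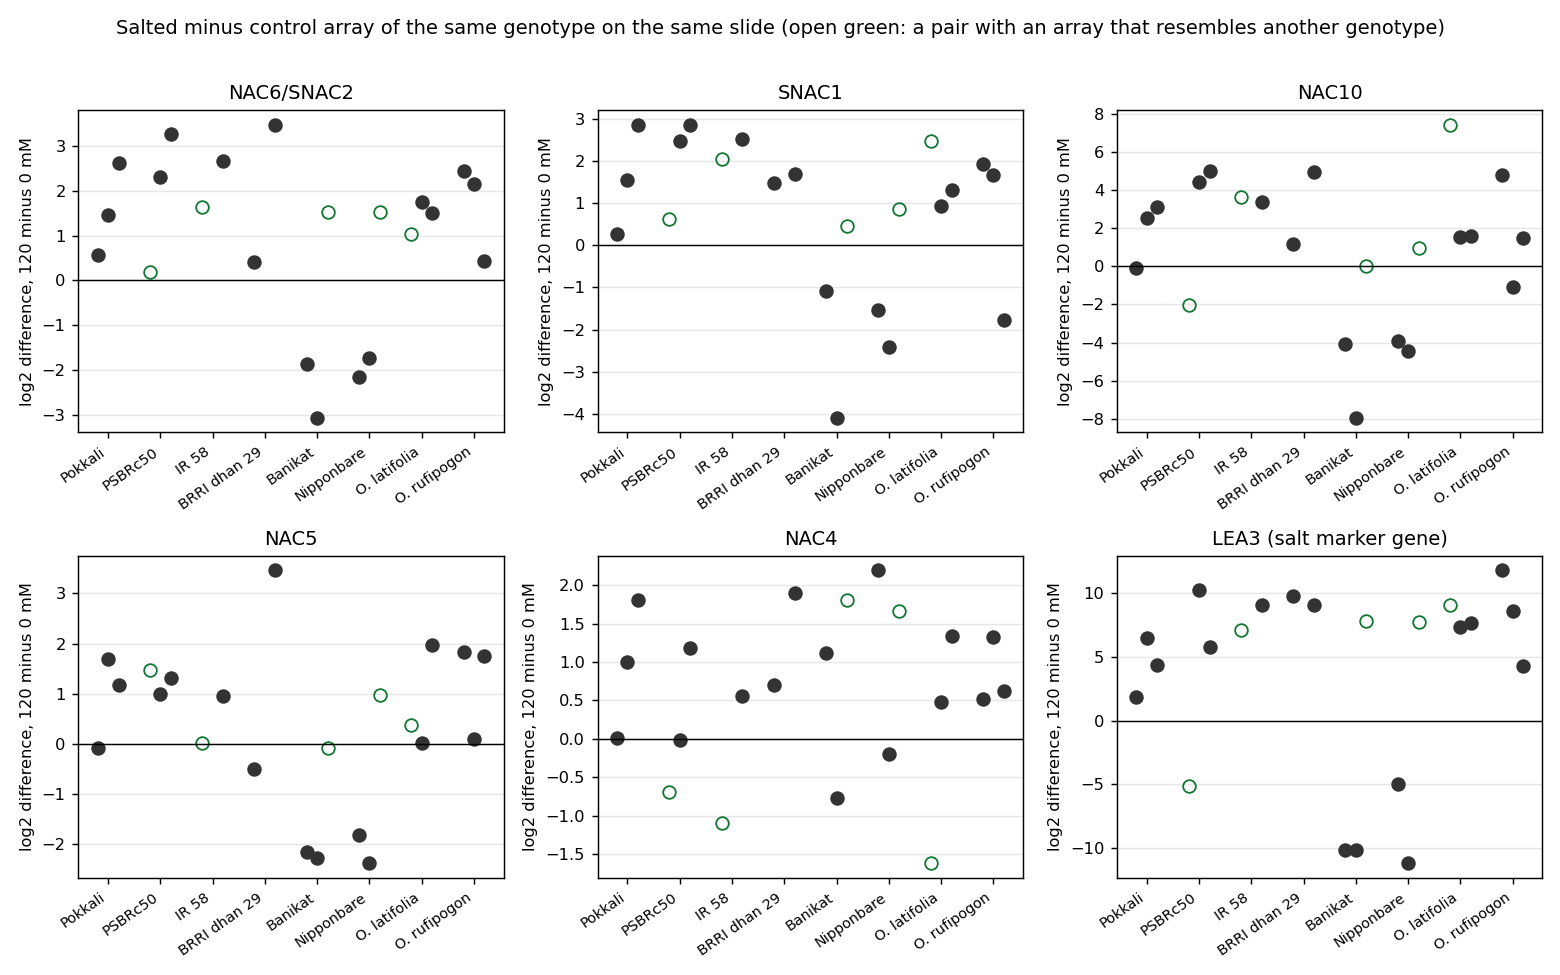
Difference between the salted and the control array of 1 genotype on the same slide, in log2 units (y axis), for 5 stress NAC genes and for LEA3, by genotype (x axis); each point is 1 pair, and open green points are pairs with an array that resembles another genotype. The 16 NAC6 pairs outside Banikat and Nipponbare lie between 0.19 and 3.47, while 4 of the 6 pairs of these cultivars lie between −3.06 and −1.73, as they lie below 0 for LEA3.

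Scan day followed the genotypes. For NAC6 the mean of the pairs was 3.01, 0.39 and 1.80 on the 3 scan days that held indica genotypes, and −0.52, −0.33 and 1.74 on the 3 that held japonica cultivars and wild species. SNAC1 gave 2.48, 0.78 and 2.01 on the former and −0.77, −0.52 and 0.97 on the latter. Within the former days all 10 pairs were higher with salt for both genes. With slide as a block in the fit, only NAC6 AB028185 of the 4 probes called over 8 genotypes passed.

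Whether salt acted differently between the genotypes was asked with an F test of the 8 salt effects. It passed for 0.6% of all probes and for 1 of the 20 NAC probes, NAC5 AK102475 (adjusted p = 0.0189), whose effects ran from −1.88 in Nipponbare and −1.58 in Banikat to 0.98 in Pokkali and 2.50 in IR 58. Without Banikat and Nipponbare this call was lost, with 0 of 20 probes called at adjusted p of at most 0.05 and 0.219% of all probes. Without the 8 arrays that resemble another genotype 11 NAC probes passed (13.6% of all probes), all of them from SNAC1, NAC6, NAC5 and NAC10. In that fit Banikat and Nipponbare keep only replicates 1 and 2, where LEA3 runs against the labels. The test there cannot separate a salt response of these cultivars from that reversal. The salt effect of tolerant and moderately tolerant genotypes (Pokkali, PSBRc50, IR 58 and Banikat) minus that of the susceptible ones was not called for any NAC probe by limma (0 of 20, 0 at an unadjusted p under 0.05, 0.0118% of all probes). The differences were 0.12 (SE 0.53) for SNAC1 AK104551, −0.01 (SE 0.53) for NAC6 AB028185, 0.35 (SE 0.44) for NAC5 AK102475 and −0.65 (SE 0.96) for NAC10. Without Banikat and Nipponbare they were 0.33 (SE 0.48), 0.10 (SE 0.53), 0.36 (SE 0.52) and −0.35 (SE 1.07). Again 0 of 20 were called, where 0.0212% of all probes were, and 0 of 20 had an unadjusted p under 0.05.

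Levels at 0 mM differed between genotypes for 16 of the 20 NAC probes (61.9% of all probes), and at 120 mM for 7 (40.3%). Without the 8 arrays that resemble another genotype 20 passed in controls (74.4%) and 19 in salted seedlings (68.6%), and without Banikat and Nipponbare 11 (55.2%) and 7 (36.9%). When O. latifolia was left out, 3 probes passed at 0 mM (7.13%), NAC5 AK102475 (adjusted p = 0.000752), NAC5 AK064292 (0.0494) and SNAC3 AK121339 (0.000722), and 2 passed at 120 mM (7.02%), NAC5 AK064292 (0.0111) and SNAC3 AK121339 (0.00145). Each gene was well above background on at least 1 array of every group by at least 1 probe, except NAC10 in O. latifolia, where the only such array is the salted one that resembles PSBRc50.

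SNAC3 and NAC4 were highest in O. latifolia. Since fewer probes were well above background on its arrays, its high and low levels may hold effects of probe match and normalization. The part of these was not tested. At 0 mM SNAC3 AK066231 read 10.75, 10.97 and 10.09 there, and its mean of 10.61 ± 0.46 (SD, n = 3) stood apart from the next genotype, O. rufipogon at 8.80 ± 0.04, with no overlap. The 7 other genotypes lay between 8.16 and 8.80, and from O. rufipogon down to BRRI dhan 29 each overlapped its neighbour in the order. NAC4 AB028183 read 11.68, 11.42 and 11.85 in O. latifolia at 0 mM (11.65 ± 0.22), followed without overlap by IR 58 at 9.61 ± 1.11, and all later neighbours overlapped. At 120 mM O. latifolia still had the highest means, 10.03 ± 1.27 for SNAC3 and 11.72 ± 1.70 for NAC4, but overlapped the next genotype through replicate 2 (8.61 and 9.80), the array that resembles PSBRc50.

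NAC3 was lowest in O. latifolia at both salt levels, and NAC10 at 0 mM, where it was not well above background. NAC3 AB028182 read 8.13, 6.89 and 7.88 there at 0 mM, below every array of the other 7 genotypes, whose means ran from 10.48 ± 1.37 in Banikat to 11.97 ± 0.12 in IR 58 and overlapped from each to the next. Its salted arrays read 7.85 and 7.80, and 11.67 on replicate 2. For SNAC1 AK104712 and NAC6 AB028185 every neighbour in the order at 0 mM overlapped, from Nipponbare at 13.71 ± 1.74 down to Pokkali at 11.51 ± 0.37 for SNAC1, and from Banikat at 15.28 ± 1.21 down to Pokkali at 13.21 ± 0.10 for NAC6. Banikat and Nipponbare headed the control order of SNAC1, NAC5 and NAC10 and closed the salted order of SNAC1, NAC6 and NAC10, with LEA3 on the same arrays as given above. For NAC5 AK063399 the control means ran from 13.74 ± 1.03 in Banikat to 11.25 ± 1.09 in O. rufipogon.

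Probes of 1 gene did not always order the genotypes alike. The 2 NAC6 probes name the same transcript and correlated at r = 0.97 over the arrays of the 7 other genotypes, but at 0.13 once O. latifolia was included, since AB028185 read between 14.89 and 16.79 on the O. latifolia arrays and AK068392 between 1.40 and 8.17 on all of them but replicate 2 at 120 mM. SNAC3 AK121339, which names the transcript -03, was lowest in O. latifolia (1.97, 1.64 and 3.20 at 0 mM), where the 3 other SNAC3 probes were highest. NAC5 AK064292 was at 1.52, 1.75 and 1.95 in Pokkali at 0 mM and at 1.57, 1.67 and 1.44 at 120 mM, none of them well above background, although Pokkali read 11.51 to 13.21 with AK063399. The Banikat replicate 3 arrays (1.96 and 1.79) and O. rufipogon at 120 mM replicate 3 (1.99) were likewise dim, and the remaining arrays outside O. latifolia read 4.70 to 8.83. Which of the disagreeing probes follows the transcript in these genotypes was not tested, and matches of the probes to other NAC genes were not analysed here.

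**Figure D5:**
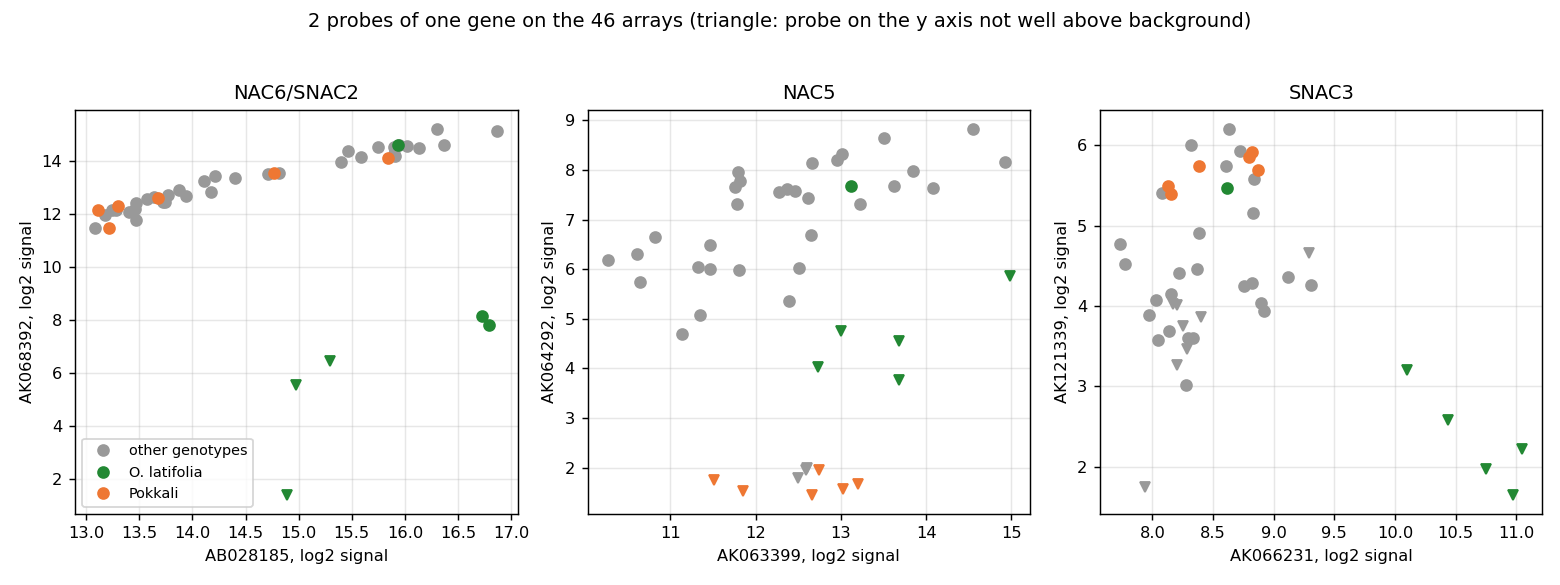
Log2 signals of 2 probes of NAC6, of NAC5 and of SNAC3 against each other on the 46 arrays (grey: 6 genotypes, green: O. latifolia, orange: Pokkali; triangles: the probe on the y axis was not well above background). The O. latifolia arrays leave the line of NAC6 and SNAC3, except replicate 2 at 120 mM, and the 6 Pokkali arrays lie at the floor of NAC5 AK064292, between 1.44 and 1.95.

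Genes reported as targets of these factors in rice were read beside them. The list was chosen with earlier results of these data known. SRO1c, which SNAC1 switches on in guard cells, rose with both probes, by 1.91 (AK102303, SE 0.41, adjusted p = 0.0129) and 1.86 (AK058934), and over the 6 genotypes without Banikat and Nipponbare by 3.28 and 3.10 (adjusted p = 5.62e-07 and 6.22e-07). It also ran with SNAC1 on single arrays, at 13.59 and 14.96 on the Banikat control arrays of replicates 1 and 2 against 8.40 and 9.34 at 120 mM. LEA3 rose with all 4 probes, by 3.13 or more (adjusted p from 0.0215 to 0.0253), the lowest value being that of AK063984, which was well above background on 4 of 23 control arrays. Without the 2 cultivars LEA3 rose by 5.40 to 7.06 (adjusted p at most 1.88e-05). NAS1 and NAS2, enzymes of nicotianamine synthesis that NAC6 can activate, did not pass with any of their 4 probes (0.15 to 0.84, adjusted p at least 0.616), also without Banikat and Nipponbare (adjusted p at least 0.136). Of the target probes thus 6 of 10 rose, with a median of 1.88. Of 9 probes for 5 genes induced by abscisic acid or salt, RAB16A (4.09, adjusted p = 0.0294) and RAB16B (4.06, adjusted p = 0.0325) rose, and without the 2 cultivars 8 of the 9.

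Among 9 further NAC genes with 13 probes, 2 probes rose and none fell, with a median of 0.12. Both belong to OMTN1 (Os02g0579000), one of the NAC genes targeted by the microRNA miR164, which rose by 0.96 (AK108080, SE 0.25, adjusted p = 0.0379) and 0.90 (AB028180, SE 0.24, adjusted p = 0.0399) and was higher in 7 genotypes. NAP, a NAC gene tied to leaf senescence, had an effect of 1.14 (SE 0.39, adjusted p = 0.108), and over the 6 genotypes without Banikat and Nipponbare it rose by 1.47 (adjusted p = 0.00328). OMTN2, also called NAC2, lay between −0.05 and 0.03 with its 4 probes, and ONAC022 and ONAC106 were at −0.15 (adjusted p = 0.714) and −0.16 (adjusted p = 0.834). ONAC131 (0.12), ONAC045 (0.29), OMTN3 (0.61) and OMTN4 (0.14) did not pass either.

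By the correlation of group means, the loci most like each gene were drawn from 33621 probes of other loci that were well above background on a share of at least 0.5 of the arrays. The points share libraries, and salt and genotype together set them, so the values are a description, and the arrays that run against their labels were kept in. Over the 16 means NAC6 AB028185 was closest to Os01g0850100 (r = 0.974), which itself rose by 1.34 (adjusted p = 0.0192), then to Os05g0392700 (0.97) and Os09g0464000 (0.968). SNAC1 was closest to Os06g0669700 (0.947), NAC10 to Os01g0727700 (0.961) and NAC5 AK063399 to Os02g0480900 (0.905). SNAC3 was closest to Os10g0480200 (0.979), NAC3 to Os10g0502500 (0.975) and NAC4 to Os03g0197800 (0.937). For each of the 7 genes another locus came first once O. latifolia was left out. Os05g0392700 remained among the 3 closest to NAC6 over the 14 means without O. latifolia (0.98).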

How the data were processed

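The deposited scanner files hold one-color spot intensity values made by the authors with Agilent Feature Extraction 10.7.3.1, background-subtracted and not normalized between arrays, with the software's flags for outlier spots and for spots well above background (deposited as 0 or 1 values, of no other unit). The authors also deposited log2 values, quantile-normalized by the methods, used here as an alternative. Locus names are those of the array design, and coordinates were not used here.

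Here the log2 processed signal was quantile-normalized between the 46 arrays over 43734 spots that are not controls, flagged outlier spots were left out (0.0562% of probe values), and spots of a probe were averaged. A probe was well above background where a share of at least 0.5 of its spots was. No spot was saturated. Depth has no meaning for arrays, and the number of arrays limits the precision. limma 3.58.1 (R 4.3.3) was fitted on 16 group means of all 42477 probes with 1 shared spread and Benjamini-Hochberg adjustment, at an adjusted p of 0.05. The step was tested on simulated data with independent noise and the same salt effect in every genotype. No simulated array was made to resemble another genotype or to run against its label, so the test does not cover such arrays. Every probe of the 7 loci is named. The members, lists and tests were chosen with earlier results of these data known. Replicates were single seedlings. Alternatives were 75th-percentile scaling, normexp on the median spot signal (the mean signal was not used here), the deposited log2 values, a filter on dim probes, blocks for replicate, slide and scan day, and omission of replicates, arrays and genotypes. Probe, promoter and protein sequences were not used here.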

Additional observations from a re-analysis of the deposited data

Results flagged for a closer look

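The salt effect of NAC5 AK102475 differed between the 8 genotypes by limma's F test (adjusted p = 0.0189), with every array labelled salted below every control in Nipponbare and above every control in Pokkali, PSBRc50, IR 58 and BRRI dhan 29. On the same Nipponbare arrays LEA3 ran against the treatment labels in replicates 1 and 2, and the part of this in the difference was not tested. The call was lost without any 1 of 3 arrays, Nipponbare at 0 mM replicate 1 (adjusted p = 0.055), at 0 mM replicate 2 (0.0605) or at 120 mM replicate 1 (0.0532). Groups of 2 or 3 arrays were too small to be searched for single outlying arrays.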

How the results depend on the processing

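Of the 20 NAC probes, 4 were called for the mean salt effect, 1 for its difference between genotypes, 16 for levels at 0 mM and 7 at 120 mM, and 1 of 160 within genotypes. The mean salt effect gave 0 calls without Pokkali, PSBRc50, IR 58, BRRI dhan 29, O. latifolia, O. rufipogon or both wild species, and with genotype means as replicates, 1 with slide as a block, 10 without Banikat, 8 without Nipponbare, 11 without both, 13 without both and the 8 arrays that resemble another genotype, and 1 without these arrays alone. Over all probes the share called was 1.94% in the main fit and 1.63% with slide as a block. It was 0.377% without Pokkali, 0.516% without PSBRc50, 0.0895% without IR 58 and 0.113% without BRRI dhan 29. Without O. latifolia it was 0.513%, without O. rufipogon 0.226%, without both wild species 0.00471%, and with genotype means as replicates 0%. It was 11.4% without Banikat, 5.93% without Nipponbare and 16.4% without both, so most NAC counts moved with calls over the whole array. The 3 settings without both cultivars or with single arrays left out were chosen after seeing the data. The difference between genotypes gave 0 calls under 75th-percentile scaling, with slide as a block, and without IR 58, Banikat, Nipponbare, both cultivars or both and the 8 arrays, and 11 without the 8 arrays. Within genotypes there were 2 calls under 75th-percentile scaling and 0 without O. latifolia or both wild species. More NAC probes were called without the 8 arrays, with or without both cultivars, but more of all probes were called there too. In those fits IR 58 keeps a single control array. Without O. latifolia, levels gave 3 calls in controls (7.13% of all probes) and 2 in salted seedlings (7.02%). Without both wild species they gave 3 (5.02%) and 2 (4.44%). At 120 mM there were 17 under 75th-percentile scaling, which moved the median effect of all probes to 0.11. Level calls at 120 mM also rose without the 8 arrays, with or without both cultivars, as did the share of all probes. For the difference, 0.6% of all probes were called in the main fit, 0.127% under 75th-percentile scaling and 0.478% with slide as a block. The share was 0.384% without IR 58, 0.273% without Banikat, 0.24% without Nipponbare and 0.219% without both. Within genotypes it was 0.515% in the main fit, 0.413% under 75th-percentile scaling, 0.0326% without O. latifolia and 0.00628% without both wild species. For levels at 120 mM it was 41.3% under 75th-percentile scaling. Without replicate 3 there were 14 NAC calls within genotypes (1.78% of all probes) and 11 for the difference (8.87%). The same fit gave 3 calls for the mean salt effect (1.65%) and 8 for levels at 120 mM (17.3%). Without replicate 1 or 2 some groups keep a single array. Without replicate 1 fewer of all probes passed in each of these tests, so lower NAC counts there cannot be told apart from that loss. Without replicate 2 fewer of all probes passed as well, except for levels at 120 mM, so the same limit holds for the other tests. For omissions of single arrays the share of all probes is not given here. The ranges of NAC counts below therefore cannot separate a change of the NAC probes from one of the whole array. The cause of these shifts was not tested.

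Leaving out a replicate number or a single array gave 0 to 8 calls for the mean salt effect, 0 to 14 within genotypes, 0 to 11 for the difference, 6 to 20 for levels at 0 mM and 0 to 13 at 120 mM. The mean salt effect had 0 calls without IR 58 at 0 mM replicate 1 or BRRI dhan 29 at 120 mM replicate 1, and 8 without Banikat at 0 mM replicate 2. NAC6 AB028185 stayed called in 44 of 46 single-array omissions (adjusted p 0.00448 to 0.0744), SNAC1 AK104551 in 19 (0.0088 to 0.0967), NAC6 AK068392 in 15 and SNAC1 AK099245 in 11. Without replicate 2, NAC6 AK068392 in O. latifolia stood at 1.98 (adjusted p = 0.526).

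Same-numbered arrays of 1 genotype deviated together (r over 0.1) in 8 of 22 pairs, with r from −0.03 to 0.46. Most of them shared a slide, and the main fit did not pair them. With the replicate number as a block, 5 NAC probes were called for the mean salt effect (2.74% of all probes) and 8 for levels at 120 mM (43.4%). The other counts were as without it.

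Of 634 values for single probes under 23 settings, 17 turned sign, none of them called. NAC3 AK073667 went to −0.082 with normexp, −0.16 without O. latifolia, −0.16 without both wild species, −0.17 without the 8 arrays and −0.48 without these and both cultivars. SNAC3 AK121339 went to −0.056, −0.14, −0.081 and −0.30 without O. latifolia, the 8 arrays, both cultivars, and both and the 8 arrays. NAC5 AK064292 went to −0.0047 without O. latifolia and −0.062 without the 8 arrays. Without both cultivars and the 8 arrays, SNAC3 AK061716 went to 0.039, SNAC3 AK066231 to 0.042 and NAC3 AB028182 to −0.018. Over the fits without 1 replicate number, NAC3 AK073667 ranged from −0.045 to 0.55, SNAC3 AK121339 from −0.23 to 0.28 and NAC5 AK064292 from −0.012 to 0.52.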
